A study of Mus musculus with 6 samples.

Results

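Potassium channel genes were examined in 6 lists of methylated regions from the mouse hippocampus. The set was chosen by name: every peak whose annotated gene symbol starts with Kcn was taken, and 3 genes with this prefix were left out by the rule. It held 1343 of the 148832 peaks in the 6 lists, and these merged into 421 of 48853 regions. Of 92 protein-coding genes of the set in the reference, 81 had a peak in at least 1 library. The gene given to a peak is the authors' annotation, and it can lie far from the peak, so membership marks neighbourhood and not regulation.

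The assay was MeDIP-seq (immunoprecipitation of methylated DNA followed by sequencing), in which fragments bound by an antibody against 5-methylcytosine are sequenced and pile up into peaks. All 6 animals were male C57BL/6 mice, and the hippocampus was taken at postnatal day 21. Each pup received 2 subcutaneous injections on postnatal day 4 and 2 on postnatal day 7. In the ethanol group (n = 3) these gave 2.5 g/kg of ethanol, dissolved in 0.15 M NaCl, while pups of the saline group (n = 3) received 0.15 M saline. Handling and injection are thus shared by both groups. The labels call the pups matched littermates and do not say how litters were divided over the animals. The comparison asks whether methylation near these genes differed 2 weeks after the last injections. The lists hold no expression values, so the tissue label was not checked against marker genes. In whole tissue, more cells methylated at a site and more methylation per cell cannot be told apart.

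Potassium channels let potassium leave the cell, which sets the resting potential of neurons and ends the action potential. Voltage-gated (Kv) pore subunits open on depolarisation and are tuned by auxiliary subunits. Inward rectifiers (Kcnj) and two-pore-domain channels (Kcnk) carry current near rest. Channels opened by calcium (Kcnma1, Kcnn) or by intracellular sodium (Kcnt) shape firing and the pause after it. Channels of the Kcnma1 type and the G protein-gated inward rectifiers, built from Kcnj3, Kcnj6 and related subunits, are known targets of ethanol. In the hippocampus the Kcnd2 subunit (Kv4.2) carries much of the fast A-type current of pyramidal cell dendrites.

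The regions that carry the findings are shown as windows of 300 bases around the summit of a region, read from the + strand of GRCm38 (mm10), with every CpG in capitals. The 4 shown first are the promoter-class regions held by all 6 libraries, and each summit lay in the coding sequence of its gene.
Kcnv2, chr19:27323299-27323598: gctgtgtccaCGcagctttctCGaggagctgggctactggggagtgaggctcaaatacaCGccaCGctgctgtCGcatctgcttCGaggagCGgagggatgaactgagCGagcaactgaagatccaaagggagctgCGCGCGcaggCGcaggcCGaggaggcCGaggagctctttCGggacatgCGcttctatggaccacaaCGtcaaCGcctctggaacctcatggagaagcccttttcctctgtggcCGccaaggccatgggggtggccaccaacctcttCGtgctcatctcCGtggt
Kcng1, chr2:168268816-168269115: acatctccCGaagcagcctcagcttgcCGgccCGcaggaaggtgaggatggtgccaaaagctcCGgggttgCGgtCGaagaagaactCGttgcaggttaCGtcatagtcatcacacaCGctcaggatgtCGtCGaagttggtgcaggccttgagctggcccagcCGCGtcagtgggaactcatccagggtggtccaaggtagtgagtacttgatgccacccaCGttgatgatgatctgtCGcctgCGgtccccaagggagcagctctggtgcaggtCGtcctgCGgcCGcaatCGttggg
Kcnj11, chr7:46099136-46099435: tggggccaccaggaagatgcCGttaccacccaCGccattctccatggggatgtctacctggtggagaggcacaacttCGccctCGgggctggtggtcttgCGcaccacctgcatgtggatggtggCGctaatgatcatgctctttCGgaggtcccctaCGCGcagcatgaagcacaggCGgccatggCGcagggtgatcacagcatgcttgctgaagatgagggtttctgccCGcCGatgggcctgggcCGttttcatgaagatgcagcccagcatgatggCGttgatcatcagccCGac
Kcnd3, chr3:105459169-105459468: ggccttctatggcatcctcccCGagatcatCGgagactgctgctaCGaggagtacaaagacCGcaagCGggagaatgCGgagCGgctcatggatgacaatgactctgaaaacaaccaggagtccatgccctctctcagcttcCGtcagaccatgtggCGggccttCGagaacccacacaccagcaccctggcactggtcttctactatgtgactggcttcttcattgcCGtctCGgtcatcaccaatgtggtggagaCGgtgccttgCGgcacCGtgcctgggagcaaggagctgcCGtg
Another 3 windows come from regions with a peak in each ethanol library and in no saline library. The Kcna7 window lies in a coding exon, the Kcnj6 window in an intron of Kcnj6, and the Kcnmb2 window, which holds no CpG, in an intron of Kcnmb2.
Kcna7, chr7:45409199-45409498: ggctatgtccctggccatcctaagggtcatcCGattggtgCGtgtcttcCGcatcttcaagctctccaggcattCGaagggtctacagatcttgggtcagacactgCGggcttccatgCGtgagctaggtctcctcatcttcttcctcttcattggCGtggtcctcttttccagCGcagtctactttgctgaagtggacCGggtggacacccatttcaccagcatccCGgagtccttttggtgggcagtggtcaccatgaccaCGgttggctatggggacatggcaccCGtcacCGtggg
Kcnj6, chr16:94781945-94782244: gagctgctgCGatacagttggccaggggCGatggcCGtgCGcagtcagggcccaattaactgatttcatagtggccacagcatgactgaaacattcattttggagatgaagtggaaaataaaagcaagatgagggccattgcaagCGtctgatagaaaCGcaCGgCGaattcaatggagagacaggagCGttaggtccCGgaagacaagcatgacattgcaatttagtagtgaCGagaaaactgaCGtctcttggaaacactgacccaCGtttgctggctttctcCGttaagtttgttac
Kcnmb2, chr3:32014232-32014531: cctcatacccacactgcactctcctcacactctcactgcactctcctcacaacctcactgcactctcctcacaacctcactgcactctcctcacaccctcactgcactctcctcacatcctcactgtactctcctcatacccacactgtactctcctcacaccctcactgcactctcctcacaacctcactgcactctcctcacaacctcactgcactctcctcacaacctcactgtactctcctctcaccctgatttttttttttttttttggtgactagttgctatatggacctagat
The last pair compares 2 regions assigned to Kcnt2, both far from the gene. The upper region had a peak in all 6 libraries, and the lower in the 3 ethanol libraries and in no saline library.
Kcnt2 upper, chr1:140816945-140817244: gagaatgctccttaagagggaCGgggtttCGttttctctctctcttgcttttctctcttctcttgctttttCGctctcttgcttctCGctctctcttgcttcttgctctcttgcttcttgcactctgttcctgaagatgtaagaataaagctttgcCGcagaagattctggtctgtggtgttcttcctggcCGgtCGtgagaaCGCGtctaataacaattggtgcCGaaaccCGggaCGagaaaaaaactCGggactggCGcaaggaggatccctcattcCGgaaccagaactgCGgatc
Kcnt2 lower, chr1:141373521-141373820: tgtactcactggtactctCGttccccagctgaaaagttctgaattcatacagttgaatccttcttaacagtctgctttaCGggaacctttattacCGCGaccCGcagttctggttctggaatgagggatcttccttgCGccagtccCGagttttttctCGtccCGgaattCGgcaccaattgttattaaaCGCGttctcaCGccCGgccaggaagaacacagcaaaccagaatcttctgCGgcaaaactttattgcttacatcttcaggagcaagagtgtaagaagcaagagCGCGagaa
The longest identical stretch of the upper and lower Kcnt2 windows was 25 bases, on opposite strands. Longer matches that allow for mismatches were not searched, so this length does not show that the windows are unrelated.

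Most of the methylated regions near potassium channel genes were intergenic by the authors' class. Of the 421 regions, 204 had their summit in no gene of the GENCODE annotation, 161 in an intron, 43 in a coding exon, 8 in an exon of a noncoding transcript and 5 in an untranslated exon. The coding exon share was 10.2% of the set's regions and 7.59% of all regions. The share in no gene was 48.5% of the set's regions and 50.8% of all regions. By the authors' classes, 293 regions were intergenic, 118 in the gene body and 10 at a promoter. By library, intergenic peaks were 67.6% to 72.6% of the set's peaks and 72.3% to 73.1% of all peaks. The intergenic class, given relative to the transcript listed for the peak, also holds sites within genes: 90 of the 293 lay inside some GENCODE gene, and 19 of these inside the assigned potassium channel gene. Kcnn2, which encodes the SK2 channel, had 4 regions in all 6 libraries, all within introns of Kcnn2 in GENCODE.

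Coding exon regions were rich in CpG and nearly free of repeats, in this set as over all genes. Median CpG density was 3.99 per 100 bp for the 43 coding exon regions, 1.42 for intronic regions and 2.53 for regions in no gene. The soft-masked share, which marks annotated repeats, had medians of 3.97%, 47.1% and 69.3% in the same order. Over all regions the CpG medians were 3.47, 1.88 and 2.25 per 100 bp, and the soft-masked medians 4.47%, 36.6% and 65.5%. Of the 43, 38 lay in a coding exon of the assigned gene itself, spread over 34 genes, with a CpG density between 2.34 and 5.95 per 100 bp. The 14 of these held by all 6 libraries came from 13 genes, among them Kcnc1, Kcnd3, Kcng1 (2 regions), Kcng4, Kcnj11, Kcnj4, Kcnk1, Kcnn1 and Kcnv2. The other 5 lay in coding exons of neighbouring genes. One of them, at chr7:46106948-46107512, was assigned to Kcnj11 and lay in Abcc8, which encodes the sulfonylurea receptor that forms the ATP-sensitive channel with Kcnj11.

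**Figure D1:**
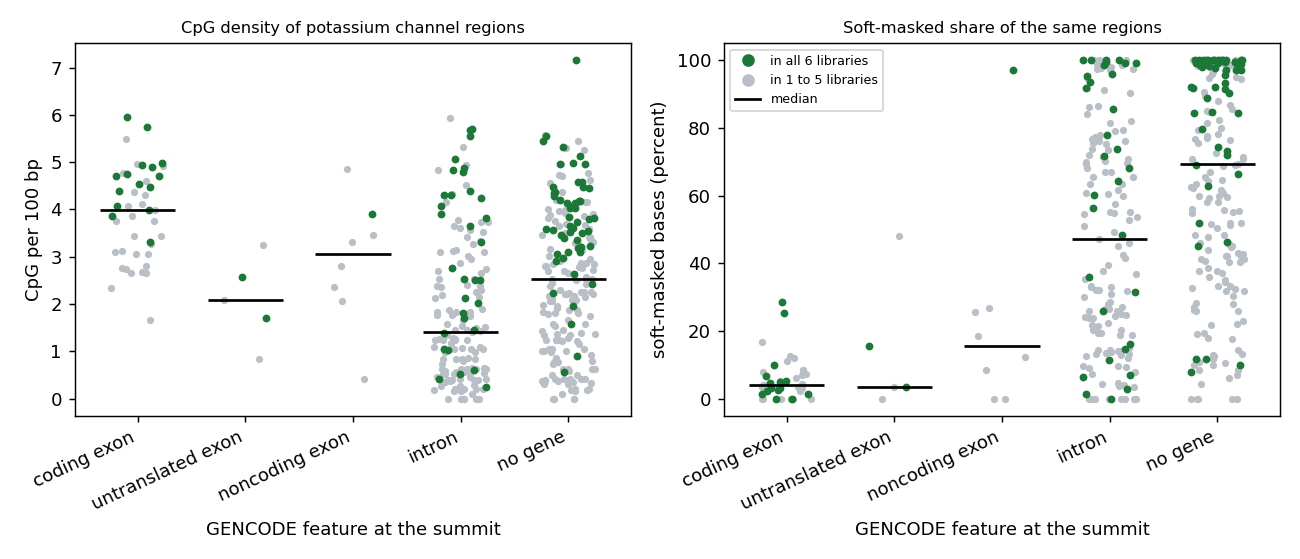
CpG density in CpG per 100 bp (left) and percent of soft-masked bases (right) for each of the 421 potassium channel regions, by the GENCODE feature at the summit. Green points were held by all 6 libraries, grey points by 1 to 5, and bars are medians; coding exon regions sit high on the left, with a median of 3.99, and low on the right, with a median of 3.97%.

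The letters GGNTANGGNGAN can spell the glycine-tyrosine-glycine-aspartate (or glutamate) codons of the potassium selectivity filter, although the reading frame was not checked. Searched on both strands, this motif was found in 7 of the 38 own coding exon regions (18.4%), among them those of Kcna6, Kcna7, Kcnc1 and Kcng1. It was found in 2.32% of all 3708 coding exon regions and in 1.68% of all regions. Median lengths were 666.5 bp, 634 bp and 608 bp. All 7 genes encode Kv pore subunits. Potassium channel pores carry this filter, so a higher share follows from the choice of genes and says nothing about methylation. Coding exons of the set without a peak were not searched.

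Regions held by every library differed in base content from those in a single library. Of the 421 regions, 103 (24.5%) were held by all 6 libraries, against 21.0% of all regions, and 146 (34.7%) by 1 library, against 34.7%. Median CpG density was 3.86 per 100 bp for the 103 and 1.34 for the 146, and over all regions 3.46 and 1.73. The median soft-masked share was 84.4% and 44.1%, against 69.1% and 37.1%. Sequence was also repeated within the set: 144 of the 421 regions (34.2%), from 38 genes, held a stretch of 50 bases found in another region of the set. Of these 144 regions, 64 were held by all 6 libraries. The median soft-masked share of the 144 was 97.1%. The treatment of reads that match several places is not given in the sources used, and the position of a peak in such sequence is therefore uncertain.

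Promoter-class regions lay downstream of the start site in all but 1 gene. The class takes a summit within 2000 bp of the start site, and 9 of the 10 regions had their summit in a coding exon, against 442 of 1476 promoter-class regions over all genes (29.9%). The 4 held by all 6 libraries belonged to Kcnv2, Kcng1, Kcnj11 and Kcnd3. Across all genes, 23.0% of promoter-class regions were held by all 6.

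Kcnv2 encodes Kv8.2, a subunit that forms no channel alone and modifies Kv2 channels. Its region, at chr19:27322924-27323983, had its summit 765 to 890 bp past the start site and ranked first of the 103 by its lowest significance percentile over the 6 libraries. This rank is what strongest means in the text that follows. The authors' fold enrichment was 14.9, 14.7 and 13.2 in the ethanol libraries and 14.2, 15.0 and 13.7 in the saline libraries. The groups overlapped, and in no library was its significance below the 99.4th percentile of that list. The Kcnv2 window shown above is dense in CpG, and the whole region held 5.75 per 100 bp.

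Kcng1 encodes Kv6.1, likewise a silent partner of Kv2 subunits. Its promoter-class region, at chr2:168268477-168269680, had folds of 5.96, 7.18 and 6.09 in ethanol and 8.14, 6.73 and 7.62 in saline libraries. Saline libraries were higher on average, with overlap. Kcnj11 encodes Kir6.2, the pore of the ATP-sensitive channel, which couples metabolism to excitability. Its region, at chr7:46098882-46099785, had folds of 8.29, 7.36 and 8.17 in ethanol and 6.95, 6.79 and 7.75 in saline libraries, again overlapping. Kcnd3 encodes Kv4.3, an A-type pore subunit. Its region, at chr3:105458920-105459934, had folds of 6.56, 6.30 and 7.46 in ethanol and 5.21, 5.41 and 4.73 in saline libraries, and these did not overlap. Summit pileup, the number of overlapping fragments at the top of the peak, was 49, 47 and 53 against 32, 41 and 31 for Kcnd3. After centring each library on its shared regions, the Kcnd3 difference was 0.30 on the log2 scale (SE 0.22). The adjusted p was 0.913 in limma, so the difference did not pass the test. How many of all shared regions had folds without overlap is not given here, so the separation cannot be called particular to Kcnd3.

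The other 6 promoter-class regions were held by 1 to 3 libraries. Kcnd2 (Kv4.2) had folds of 5.40 and 6.52 in ethanol 2 and 3 and 4.96 in saline 3. Kcnj16, the Kir5.1 subunit, had a fold of 7.54 in ethanol 3 and 6.71 and 6.26 in saline 1 and 2. Kcnb2 (Kv2.2) and Kcne4, a single-span auxiliary subunit, each had a peak in ethanol 2 and in saline 3. Kcnh6, an ERG-type subunit, had a peak in ethanol 3 alone. The Kcna2 region, near the gene for the axonal Kv1.2 subunit, was the exception upstream: its summits lay 1989 and 2203 bp before the start site in ethanol 2 and 3, so that it was promoter class in one list and intergenic in the other.

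**Figure D2:**
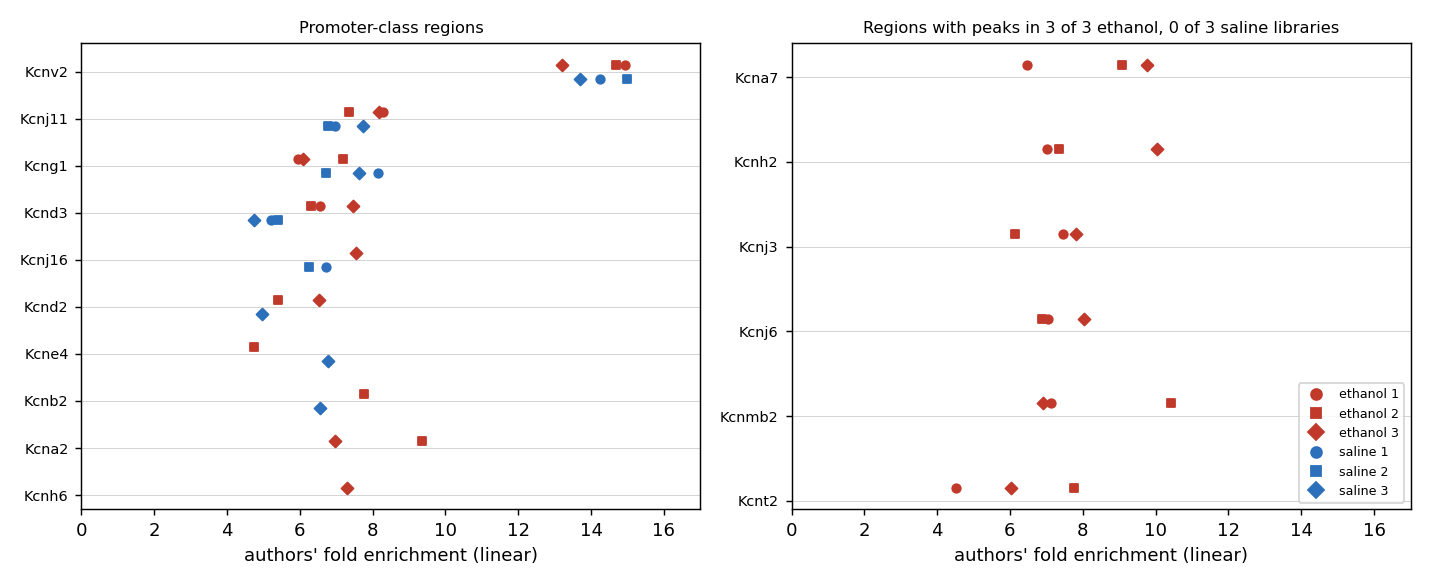
The authors' fold enrichment (linear ratio of summit to local background) for promoter-class regions (left) and for regions called in every ethanol and no saline library (right), with 1 point per library that held a peak; red is ethanol, blue is saline. Kcnv2 stands far to the right at 13.2 to 15.0, and Kcnd3 is the one promoter-class region held by all 6 libraries in which the red and blue points do not overlap. How often the points separate over all shared regions is not given.

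Among the Kv pore subunits, 36 of 39 genes had a peak, with 177 regions of which 40 were held by all 6 libraries. Kcnd2 had 20 regions, Kcnv1 had 18 and Kcna4 had 16. Kcnd2 is a gene of 514460 bp, but 18 of its 20 regions were intergenic in class. The Kcnd2 peaks numbered 11, 17 and 12 in ethanol and 7, 10 and 8 in saline libraries. Its region with the highest lowest-library percentile, at chr6:20321360-20322164, lay far before the start site (signed distance of -894381 bp at the farthest summit) and had folds of 12.3, 13.3 and 14.7 in ethanol and 13.4, 11.3 and 14.1 in saline libraries. Another Kcnd2 region, at chr6:20699247-20700129, had higher pileups in 5 of the 6 libraries, 309, 127 and 373 in ethanol and 165, 387 and 320 in saline libraries, but lower folds of 5.22 to 10.6. Kcnv1, the silent Kv8.1 subunit, spans 19827 bp and had no region in its promoter or body. Its peaks numbered 9, 16 and 12 in ethanol and 10, 9 and 9 in saline libraries.

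Kcnc genes encode Kv3 subunits, which allow fast-spiking neurons to fire at high rates. Kcnc1 and Kcnc4 each had a coding exon region held by all 6 libraries. The Kcnc1 region, at chr7:46427250-46428142, had folds of 11.1, 8.70 and 9.48 in ethanol and 8.58, 8.30 and 9.56 in saline libraries. Kcnc4 also had one of the 10 strongest regions of the set, at chr3:107395890-107397357 in no gene, with folds of 8.71 to 10.6. Kcnh1, the EAG1 subunit, had 8 regions, all in the gene body. The strongest, in an intron at chr1:192251566-192252282, had folds between 14.5 and 15.6 in the 6 libraries. Kcna4 (Kv1.4) had 7, 12 and 8 peaks in ethanol and 6, 8 and 7 in saline libraries. Kcnq5, an M-current subunit, had 5 regions, 3 of them in all 6 libraries and all intergenic in class. Kcnf1 had 2 regions, and Kcns2 had 9, of which none was held by all 6.

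Auxiliary subunits had a peak at 9 of 12 genes, with 41 regions and 11 in all 6 libraries. Kcnip4, which binds Kv4 subunits, had 13 regions, 8 in introns of this gene of 1135620 bp and 5 in no gene, and its peaks numbered 7, 12 and 8 in ethanol and 6, 7 and 6 in saline libraries. Kcne4 had 8 regions, and the one at chr1:78829841-78830723, 13286 bp past the start site and wholly soft-masked, was the second strongest of the set. Its folds were 13.7, 11.4 and 12.3 in ethanol and 12.3, 12.4 and 13.5 in saline libraries, which overlapped. Kcnab2, a cytoplasmic beta subunit, had 4 regions.

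Inward rectifiers had a peak at 11 of 15 genes, with 70 regions and 22 in all 6 libraries. Only 9 of the 70 (12.9%) were gene body class, the smallest share of any class with over 6 regions. Kcnj2 (Kir2.1), a gene of 10662 bp, had 17 regions, all intergenic, and Kcnj3 (GIRK1) had 13, likewise all intergenic. Kcnj6 (GIRK2) had 13 regions, with 9, 10 and 8 peaks in ethanol and 5, 9 and 6 in saline libraries. Its strongest region, at chr16:95088105-95088910 and before the start site (signed distance of -90840 bp at the farthest summit), had folds of 15.6 in each ethanol library and 14.6, 14.7 and 15.1 in saline libraries, without overlap. Its scaled pileup differed by 0.02 on the log2 scale (SE 0.17, adjusted p = 0.998 in limma). As for Kcnd3, the share of all shared regions with folds that do not overlap is not given. Kcnj4 (Kir2.3) had a strong coding exon region at chr15:79484781-79486048. Its folds there were 12.6, 13.2 and 11.8 in ethanol and 12.2, 13.3 and 12.4 in saline libraries.

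Two-pore-domain channels had a peak at 12 of 13 genes, but 6 of their 47 regions (12.8%) were held by all 6 libraries. Of the 47, 51.1% were gene body class. Kcnk2 (TREK-1), opened by stretch and lipids, had 14 regions, and 1 was held by all 6. Its peaks numbered 5, 11 and 3 in ethanol and 3, 8 and 7 in saline libraries, so the spread within each group exceeded the difference between them. Kcnk1 (TWIK-1) had a strong region in no gene, at chr8:126109601-126111297, with folds of 8.73 to 11.4.

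Large-conductance and sodium-activated channels had a peak at all 8 genes, with 64 regions and 18 in all 6 libraries. Kcnma1, the pore of the BK channel, had 17 regions, 11 of them in the body of a gene of 712823 bp. Its strongest region, in an intron at chr14:23534999-23535856, had folds of 11.4, 13.4 and 12.7 in ethanol and 13.5, 12.0 and 13.1 in saline libraries. Kcnt2, a sodium-activated channel also called Slick, had 20 regions, 8 of them in all 6 libraries. Its strongest region is the upper Kcnt2 window printed above (region chr1:140816669-140818227), with folds of 14.0, 12.7 and 13.1 in ethanol and 11.8, 13.2 and 13.3 in saline libraries. Kcnu1, a relative of BK known from sperm, had 4 regions in introns, 3 of them in all 6 libraries. Small and intermediate conductance channels (Kcnn) had 16 regions in 4 genes, 10 of them at Kcnn2, and Kcnrg, a soluble regulator of Kv assembly, had 6.

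**Figure D3:**
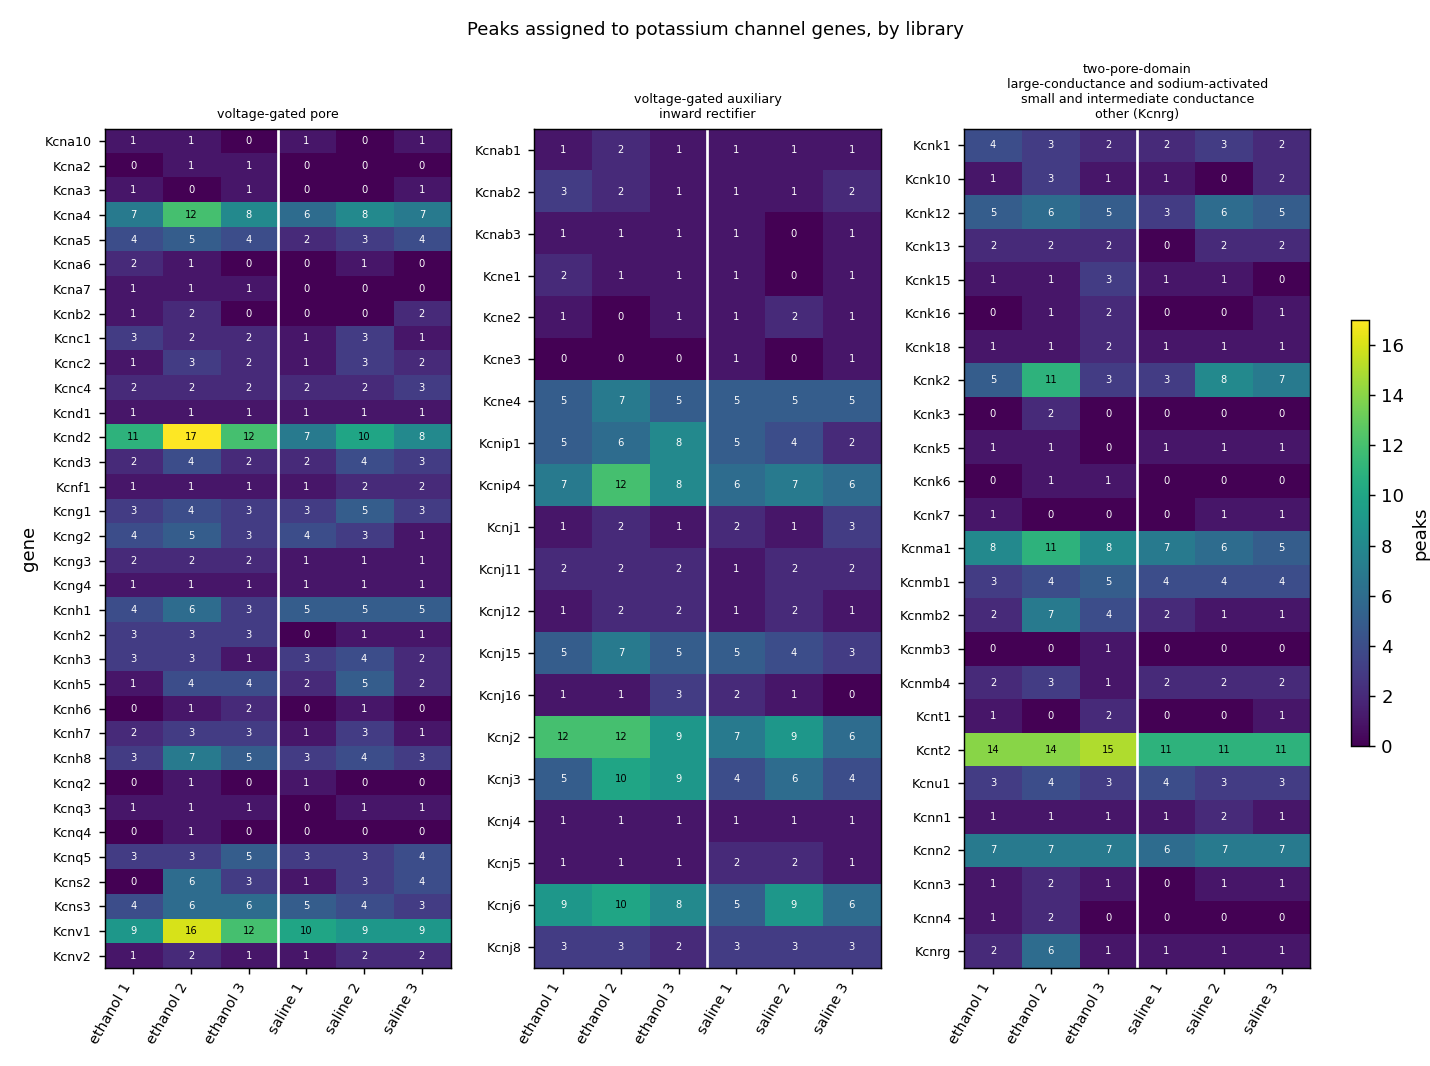
Number of peaks assigned to potassium channel genes (vertical) in each of the 6 libraries (horizontal), grouped by channel class; colour and printed digits give the count. Kcnt2 shows 14, 14 and 15 peaks in the ethanol and 11 in each saline library, and the 10 genes with most regions hold 38.2% of all 421.

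Regions were spread unevenly over the genes, and longer genes tended to have more. Exceptions were Kcnv1, with 18 regions and a length of 19827 bp, and Kcnj2, with 17 regions and 10662 bp. The 10 genes with most regions held 161 of the 421 (38.2%), the median gene had 3, and 16 genes had 1. Over the 81 genes, the number of regions had a Spearman correlation of 0.44 with gene length, and 0.57 for promoter and gene body regions, given as a description across genes that share the same libraries. The 11 genes with no peak in any library were Kcna1, Kcne1l, Kcnh4, Kcnip2, Kcnip3, Kcnj10, Kcnj13, Kcnj14, Kcnj9, Kcnk4 and Kcns1. Their median length was 9339 bp, against 37101 bp for the 81.

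Another 66 regions lay over 500 kb from the start site of the assigned gene, and all of them belonged to 7 genes. Kcnt2 had 15, Kcnv1 had 14, Kcnd2 had 11, Kcna4 had 9, Kcnma1 had 8, Kcnj2 had 7 and Kcnj3 had 2. Such a region can still lie inside a long gene. The Kcnma1 region at chr14:23409743-23410744, of gene body class, had its summit 594043 to 594203 bp from the start site. Peaks over 500 kb from the start site made up 15.7% to 17.7% of the set's peaks in a library, and 8.06% to 9.13% of all peaks. Of the 66, 23 were held by all 6 libraries. The median soft-masked share of the 66 was 87.4%. The distant regions were 15 of 20 for Kcnt2 and 14 of 18 for Kcnv1.

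Ethanol libraries held more peaks near potassium channel genes, and they held more peaks throughout the genome. Potassium channel peaks numbered 218, 306 and 237 in the ethanol libraries and 175, 216 and 191 in the saline libraries. Each ethanol library was above each saline library, by a narrow margin of 2 peaks between ethanol 1 and saline 2. The means were 254 ± 46.3 and 194 ± 20.7 (SD, n = 3 each), a ratio of 1.31. The exact two-sided permutation test gave p = 0.1, the smallest that 3 against 3 libraries allow (adjusted p = 0.233 over 14 measures). Ethanol 2 had the most peaks, and without it the difference in means fell from 59.7 to 33.5 peaks. All peaks numbered 23141, 34904 and 28386 in ethanol and 18922, 22703 and 20776 in saline libraries, a ratio of means of 1.39.

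As a share of the list, the set was not higher after ethanol. Potassium channel peaks were 0.942%, 0.877% and 0.835% of all peaks in the ethanol libraries and 0.925%, 0.951% and 0.919% in the saline libraries. The difference was -0.0473 percentage points (exact permutation p = 0.3, adjusted p = 0.467), and the groups overlapped. When each list was cut to its 18922 most significant peaks, the length of the shortest, the difference in peak number was -3.33 (exact permutation p = 0.5). The floor of the background pileup, a measure of relative depth, was 2.16, 2.33 and 2.34 in ethanol and 1.85, 2.65 and 2.02 in saline libraries, and its part in the peak counts was not tested.

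**Figure D4:**
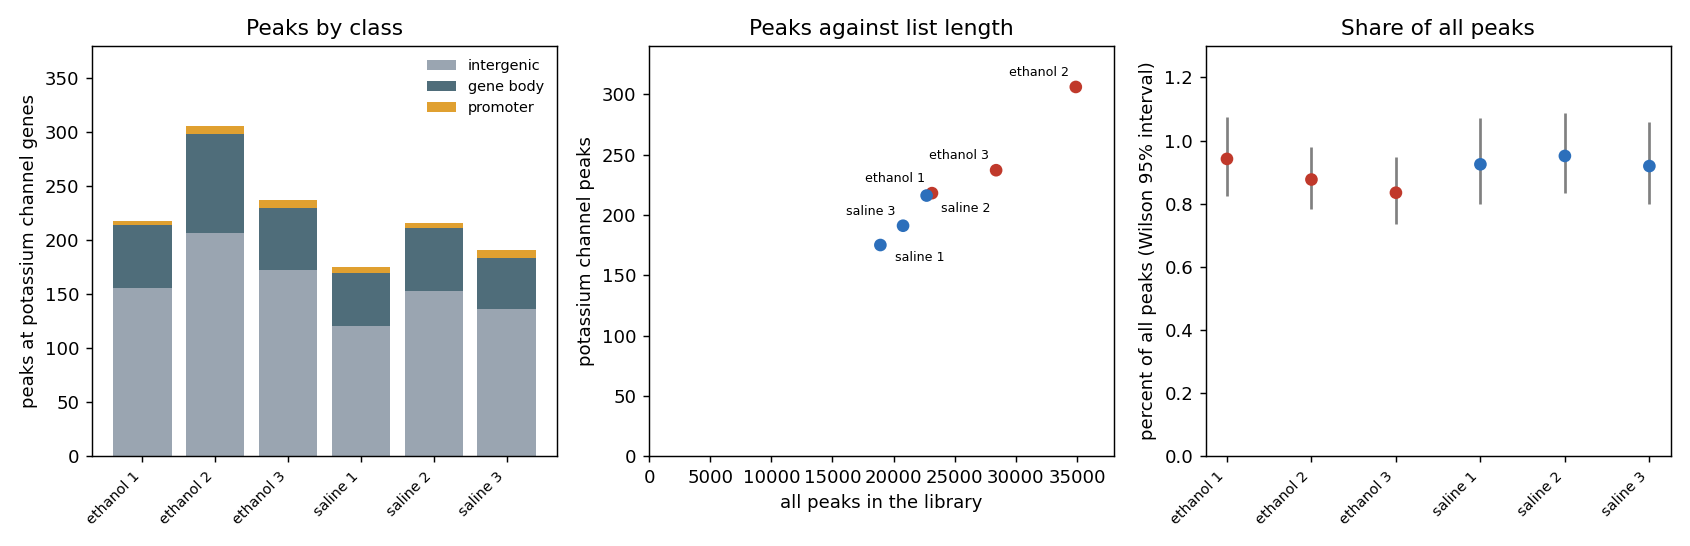
Potassium channel peaks per library by the authors' class (left, stacked bars), the same count against the total number of peaks in the library (middle), and the share of all peaks with Wilson 95% intervals, which cover counting error only (right). The bars are higher in the ethanol libraries (218 to 306 against 175 to 216), while the shares on the right overlap between 0.835% and 0.951%.

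The number of potassium channel genes with a peak was 71, 75 and 71 in ethanol and 63, 64 and 69 in saline libraries, without overlap (exact permutation p = 0.1, adjusted p = 0.233). With lists of equal length the difference in means fell from 7 genes to 1 (exact permutation p = 0.6). By class, inward rectifier peaks numbered 41, 51 and 43 against 33, 40 and 30. Peaks of the large-conductance and sodium-activated class numbered 33, 43 and 39 against 30, 27 and 27, and those of auxiliary subunits 25, 31 and 26 against 22, 20 and 20. In these 3 classes the groups did not overlap (exact permutation p = 0.1 each, adjusted p = 0.233), while those of Kv pore subunits, two-pore-domain, Kcnn and Kcnrg overlapped. Class counts were not scaled to list length. The ratios of means in the 3 classes were 1.31, 1.37 and 1.32 in the order given, each below the 1.39 of all peaks. The gene body share was 26.9% ± 2.65 after ethanol and 26.7% ± 1.44 after saline (SD over 3 libraries each), with an exact permutation p of 1. Promoter-class peaks numbered 4, 8 and 7 against 5, 5 and 7.

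Of the 81 genes, 6 (7.41%) had more peaks in every ethanol library than in any saline library, against 5.12% of all genes. They were Kcna7, Kcnd2, Kcng3, Kcnh2, Kcnma1 and Kcnt2. None had more in every saline library, against 0.0989% of all genes. Peak counts per gene were not scaled to list length, and the genes compared were not matched for number of peaks. The 2 shares therefore do not show an excess particular to the set. Kcnh2 encodes ERG1, a channel that dampens repeated firing and repolarises the heart, and had 3 peaks in each ethanol library and 0, 1 and 1 in the saline libraries. Its coding exon region at chr5:24331678-24332308 had folds of 4.48 and 6.09 in ethanol 1 and 3, and another, at chr5:24325042-24325970, a fold of 4.43 in ethanol 2. The Kcnh2 region at chr5:24269411-24270161 was shared, with folds of 6.05, 5.34 and 5.58 in ethanol and 5.01 and 3.85 in saline 2 and 3. Kcng3, the silent Kv6.3 subunit, had 2 peaks in each ethanol and 1 in each saline library. Its shared region in an untranslated exon had folds of 9.52 to 11.4. Kcnma1 had 8, 11 and 8 peaks in ethanol and 7, 6 and 5 in saline libraries.

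A peak in all 3 ethanol libraries and in no saline library was found in 6 of the 421 regions (1.43%), against 1.49% of all regions, so the share was close to that of the genome as a whole. The reverse pattern was found in 0 of 421, against 0.108% of all regions. More broadly, 203 regions (48.2%) were held by more ethanol than saline libraries, against 51.8% of all regions, and 64 (15.2%) by more saline libraries, against 14.7%. Of the 38 regions in the gene's own coding exons, 16 were held by more ethanol and 2 by more saline libraries. The same split was not counted over the coding exon regions of all genes, so no lean particular to coding exons can be read from it. The 6 regions belonged to Kcna7, Kcnh2, Kcnj3, Kcnj6, Kcnmb2 and Kcnt2. A peak missing from a list says that the region was not called there, not that methylation was absent.

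Kcna7 encodes Kv1.7, known mainly from muscle. Its region, at chr7:45409036-45409647, is the single region of the gene and lies in its coding exon, with folds of 6.47, 9.06 and 9.76 in the ethanol libraries. The nearest saline peak was 30640 bp away. The Kcna7 region was the one of the 6 that kept the pattern when all lists were cut to equal length, and its printed window lies within the gene's own coding sequence.

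The other 5 regions lay outside coding exons. The Kcnj6 region, at chr16:94781823-94782509, lay in an intron of Kcnj6 that the authors' class calls intergenic, with folds of 7.04, 6.88 and 8.03. The Kcnj3 region, at chr2:55347062-55347872, had folds of 7.47, 6.13 and 7.82, was wholly soft-masked and lay 280761 bp from the nearest saline peak. Both genes encode subunits of G protein-gated channels, and the Kcnj6 region was 7.71% soft-masked. The Kcnmb2 region, at chr3:32014048-32014742, had folds of 7.14, 10.4 and 6.89 although it holds no CpG. Kcnmb2 encodes a beta subunit that makes BK channels inactivate. The Kcnh2 region, at chr5:24314471-24315179 in no gene, had folds of 7.02, 7.34 and 10.0. The Kcnt2 region, at chr1:141372017-141374091, had folds of 4.52, 7.75 and 6.03 and was 97.6% soft-masked. It dropped out when peaks needed a -log10 q of at least 10, and its weakest peak had a significance percentile of 0.573 in its list.

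Leaving out a library relaxed the rule, because a region then needed 1 library fewer for the pattern. A rise from the count of 6 was therefore built in and does not show dependence on single libraries. The count was 19 without ethanol 1, 13 without ethanol 2 and 9 without ethanol 3. It was 11 without saline 1, 13 without saline 2 and 8 without saline 3. Under the same change, regions with the reverse pattern numbered 4 without saline 1, and 2 without ethanol 2 or without saline 2. Counts over all regions under this change are not given here, so the set cannot be compared with the genome.

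In the 103 regions held by all 6 libraries, where peak height could be compared, no difference passed the test. Summit pileup was taken on the log2 scale, centred on each library's median over shared regions and fitted in limma over all 10276 such regions. At an adjusted p under 0.05, 0 of the 103 were called, against 0% of all regions, and the smallest adjusted p of the set was 0.895. At an unadjusted p under 0.05, 5 of 103 (4.85%) were past the threshold, against 5.17% of all. The log2 of the authors' fold enrichment gave 0 and 11 (10.7%) by the same 2 thresholds, and 7.49% of all regions by the second. Differences, ethanol minus saline, ran from -0.53 to 0.50 with standard errors of 0.155 to 0.297. The median was 0.01, against -0.02 over all regions, and 53 regions were higher and 50 lower, a split that rests on centring each library on its median. Over all 10276 regions, 4829 were higher by this centring. Scaled by the background floor instead, the median over all regions moved to 0.13 and that of the set to 0.16. By this scaling 78 of the 103 were higher, and 7368 of all 10276. With the log2 of fold enrichment the medians were 0.05 and 0.09, with 73 of the 103 higher and 6478 of all 10276.

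None of the largest differences in either direction passed the test, with adjusted p of 0.895 to 0.913 in limma for those given here. The Kcnj3 region at chr2:55628565-55629436 had pileups of 52, 60 and 50 in ethanol and 50, 77 and 76 in saline libraries, a scaled difference of -0.53 (SE 0.21). The pileups overlapped, though the scaled values did not. The Kcng1 promoter-class region had pileups of 51, 61 and 39 against 47, 60 and 75, a scaled difference of -0.49 (SE 0.22). Both were lower on average after ethanol. In the other direction, the Kcnk12 region at chr17:87866774-87867488 had pileups of 47, 43 and 36 in ethanol and 23, 24 and 29 in saline libraries, a scaled difference of 0.50 (SE 0.22). Kcnk12 encodes THIK-2, a two-pore-domain subunit. A Kcnt2 region at chr1:141140287-141141366 had pileups of 42, 56 and 49 against 32, 30 and 30, a scaled difference of 0.44 (SE 0.22). The Kcnu1 region at chr8:25871342-25871968 had pileups of 67, 72 and 56 against 29, 33 and 78, a scaled difference of 0.39 (SE 0.28), with saline 3 above every ethanol library.

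**Figure D5:**
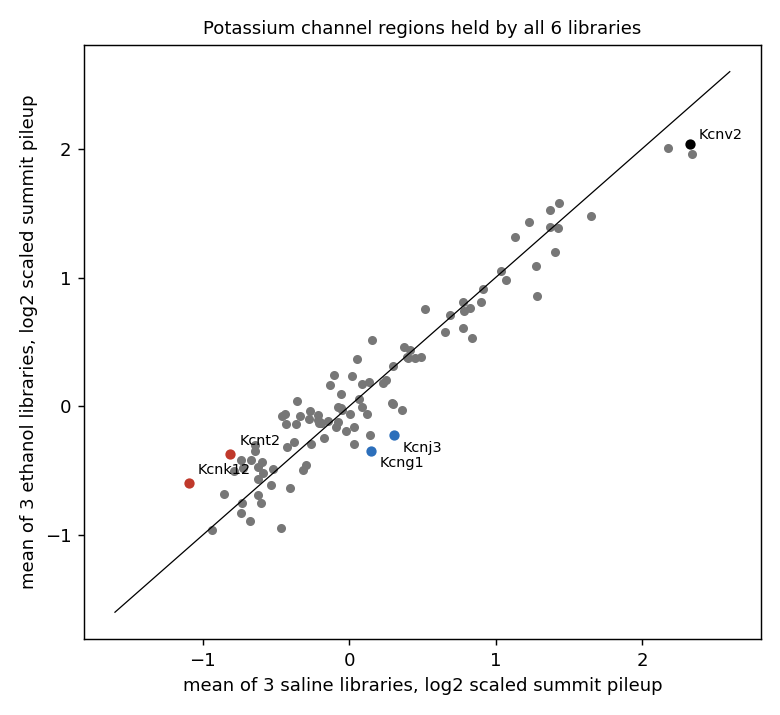
Mean log2 summit pileup, centred on the library median over shared regions, in the 3 ethanol (vertical) against the 3 saline libraries (horizontal) for the 103 potassium channel regions held by all 6. The line marks equality; the 2 largest positive differences are red, the 2 largest negative blue, Kcnv2 is black, and the differences run from -0.53 to 0.50.

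Genes whose products bind or accompany potassium channels were read beside the set. Of 20 such genes, 16 had a peak, with 97 regions, of which 15 (15.5%, against 21.0% of all regions) were held by all 6 libraries. A peak in each ethanol and no saline library was found in 2 (2.06%, against 1.49% of all regions), and 0 were promoter class. The Dpp10 region at chr1:122953073-122953647, near the gene for a Kv4 partner, had folds of 8.61, 7.04 and 6.28 in the ethanol libraries. The Hcn3 region, in an intron at chr3:89150593-89151458, had folds of 3.92, 4.63 and 3.80, and Hcn genes encode channels opened by hyperpolarisation. Hcn2 had a coding exon region in all 6 libraries, with folds of 8.53, 11.2 and 10.0 in ethanol and 8.92, 9.65 and 10.3 in saline libraries. The remaining regions in all 6 belonged to the Kv4 partners Dpp6 and Dpp10, the scaffold genes Dlg1, Dlg2 and Ank3, the axonal adhesion genes Cntn2 and Cntnap2, and Hcn4. Sodium channel genes (Scn) had 48 regions. Of these, 12 (25%) were in all 6 libraries and 1 (2.08%) had peaks in each ethanol and no saline library. Voltage-gated calcium channel genes had 85, with 10 (11.8%) and 2 (2.35%) in the same order. Over all regions these shares were 21.0% and 1.49%.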

How the data were processed

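DNA methylation was profiled by MeDIP-seq in 6 hippocampi, 3 per group. Per the labels' protocols, immunoprecipitated fragments were sequenced from one end, reads were aligned to mm10 with Bowtie (Bowtie2 2.1.0 per the submitters' processing notes) and MACS version 2 called peaks with a q threshold of 0.0001. Each library has its own deposited list. Per the file headers, each peak carries the pileup at its summit (a coverage signal not scaled to depth), the nearest gene and a fold enrichment (a linear ratio). In the deposited lists the q-value column holds -log10 q. Its smallest value was 5.00 in saline 1 and 5.23 in saline 3, with the other lists between, so the lists were stricter than the stated threshold. Library totals are not in the lists used here, so the depth is unknown, and intervals on shares cover counting error only. An IgG immunoprecipitation was not analysed here.

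Peaks listed for several genes were counted once, and peaks of the 6 libraries that shared at least 1 bp were merged into regions. Library values were tested with two-sided exact permutation tests and Benjamini-Hochberg adjustment over 14 measures. Summit pileup was tested with limma 3.58.1 in R 4.3.3, with adjusted p-values over 10276 regions. On values simulated for the ethanol against saline comparison over 10276 regions, limma called 96 of 200 regions changed by 1 on the log2 scale (3 false calls) and 191 of 200 changed by 2 (12 false calls). The animals were treated as independent. Features came from GENCODE M21, and sequence, CpG and soft-masked bases from RefSeq GRCm38. No table of other samples' columns was present. Alternatives were equal list length, a -log10 q of at least 10, 200 bp overlap, no intergenic peaks, other scalings, a mean pileup of at least 30, a replicate block and leaving out each library.

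The genes, the lists and the rule for named genes were chosen with earlier results of these data known. The rule named genes with a promoter-class peak, with a group-specific region, the 10 with most regions, the 10 strongest regions, the gene with most regions of each subfamily, the 3 largest scaled differences each way, and partner genes with such regions. A few genes that the rule selects are not reported here. Genes beyond the rule were named after their values were seen.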

Additional observations from a re-analysis of the deposited data

How the results depend on the processing

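The number of potassium channel peaks was 59.7 higher in ethanol libraries on average. With lists of equal length the difference was -3.33, and leaving out single libraries it ranged from 33.5 to 77.5. The gene body share differed by 0.278 percentage points. That difference was -1.40 with lists of equal length, -0.287 at a -log10 q of at least 10, and -1.12 to 1.51 leaving out single libraries, with the negative values coming without ethanol 2 (-1.12) and without saline 3 (-0.487). The count of 6 regions with peaks in each ethanol and no saline library was 1 with lists of equal length, 2 without intergenic peaks, 5 at a -log10 q of at least 10 and 8 to 19 leaving out single libraries. The reverse count of 0 became 0 to 4 leaving out single libraries. Leaving out a library relaxes the rule for both patterns, so a rise was built in. Counts over all regions under these alternatives are not given here, so the set cannot be compared with the genome. Causes of the other changes were not tested. The difference of 7 genes with a peak was 1 with lists of equal length. The share of all peaks stayed lower in ethanol libraries under each alternative run, by -0.0761 to -0.0225 points leaving out single libraries.

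In alternatives chosen after seeing the data, regions held by all 6 libraries numbered 90 with lists of equal length, 101 at a -log10 q of at least 10 and 28 without intergenic peaks, against 103. No scaled pileup of the set was called by limma under any alternative run, with 3 to 11 of 103 regions at an unadjusted p under 0.05 (2.91% to 10.7%, against 3.36% to 10.3% of all regions). Over all regions, 24 of 10276 were called without ethanol 1, 4 with a replicate block and 1 without saline 1.

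Same-numbered libraries did not deviate together (correlations of -0.172, -0.0295 and -0.0109), so the numbers were not taken to pair the samples; the labels leave any pairing within litters unstated. With the replicate block the differences were 59.7 peaks and 7 genes (exact sign-flip permutation p = 0.25 each, the smallest 3 pairs allow), -0.0473 points for the share of all peaks and 0.278 points for the gene body share. The block left 0 of the 103 scaled pileups called. The deposited lists limit the comparison to called peaks, so a region just under the threshold counts as missing.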
